A study of Homo sapiens with 10 samples.

Results

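The comparison of untreated cells with cells given hepatocyte growth factor (HGF) for 24 h rested on 4 of the 10 bead arrays of the series, 2 per group, chosen by their labels alone. The cells were MDA-MB-435, an established human melanoma line, kept in standard growth conditions, and the labels name no transgene for either group. On the other 6 arrays, again 2 per group, were cells given HGF for 1 h or 6 h and cells made to express ITGB4, the integrin beta-4 chain, by transduction. These 6 arrays helped to estimate the spread, and the 6 h arrays also served to ask what was left of the earlier response. The dose of HGF, the age of the cultures and any untreated culture kept alongside for 24 h are not stated in the sources used here, so hours in culture and hours with HGF cannot be told apart.

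HGF is a secreted factor that binds MET, a receptor tyrosine kinase. MET recruits adaptor proteins and signals through the RAS and ERK kinases, through PI3K and AKT, and through STAT3, and in many cells HGF leads to scattering, migration and growth. Signaling of this kind is usually followed by early transcription factors, then by feedback inhibitors, and later by a return of many transcripts toward their resting level, and the 24 h arrays read the cells at that late stage.

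Of 24136 probes, 24105 were left without controls and missing values. On each array 10226 to 11899 of these (42.4% to 49.4%) had a detection score of 0.99 or more. The 14018 probes that reached this score on at least 1 of the 10 arrays were tested, and they stood for 10599 genes where a symbol was known. Levels below are quantile normalized signals in arbitrary units, and differences are on the log2 scale, where 1 is a doubling. All 7 measured melanocyte markers were detected on all 4 arrays, with summed signals of 22955 to 26278 in untreated cells and 19002 to 22595 at 24 h. Of 5 epithelial markers, KRT8 and KRT18 were detected on all 4 arrays and CDH1, EPCAM and KRT19 on none. DCN was detected among 5 fibroblast markers and COL1A1, COL1A2, COL3A1 and PDGFRB were not. Among 4 immune markers 3 were detected on none of the arrays, and PTPRC on 1. MET itself was at the detection limit, a signal of 89.6, with 106.9 and 84.5 in untreated cells and 108.9 and 83.3 at 24 h, and with detection on 1 of 2 arrays in each group. HGF was detected on 0 of 10 arrays. ITGB4 was not detected outside the ITGB4 arrays, with 61.1 and 62.5 in untreated cells and 59.6 and 63.5 at 24 h. Of the 22 control probes, the pair for the neomycin resistance gene neo was detected on all 4 arrays, with raw signals of 8580.5 to 16968.4, and the other 20 were detected on none. The source of the neo signal was not tested, and the cells cannot be taken to be free of an introduced gene. The replicate number also marked a difference in array background. On replicate 1 of the untreated and HGF groups the 25th percentile of the detection score was 0.00814 to 0.0225, and on every other array it was 0.249 to 0.388. Differences within a replicate number were therefore also differences within one kind of background.

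At 24 h no transcript could be told from its untreated level by the test used. limma called 0 of 14018 probes (0%) at an adjusted p under 0.05, with a lowest adjusted p of 0.857. Before adjustment 800 probes (5.71%) had a p under 0.05, 325 higher (2.32%) and 475 lower (3.39%), where 701 would be expected if nothing differed. At 6 h the same fit called 267 probes (1.9%), and in the direct comparison of 24 h with 6 h it called 1165 (8.31%), 594 higher (4.24%) and 571 lower (4.07%). The 24 h differences had a median of 0.01 and a standard deviation over probes of 0.22, against 0.30 at 6 h. Without untreated replicate 2 or HGF 24 h replicate 1 the 24 h value was 0.30 or 0.34. Without untreated replicate 1 or HGF 24 h replicate 2 it was 0.21. These omissions set 1 array against 2, and the 6 h value was not taken under them, so no order of the times follows. In all, 174 probes (1.24%) differed more than 1.5-fold, 38 higher and 136 lower, and 9 (0.0642%) more than 2-fold. The 95% interval of the difference lay wholly within 1.5-fold of untreated for 8432 probes (60.2%). The intervals were per probe and not adjusted for the number of probes. They were taken on signals without background subtraction, and those of probes near the detection limit hold little information on size. The interval lay wholly past 1.5-fold for HSPH1 and HSPA1B, both with an adjusted p of 0.857 by limma. For the remaining probes it crossed that margin and did not place the level. These figures rested on single arrays and on the source of the values. The 174 probes became 705 without untreated replicate 2, 1110 without HGF 24 h replicate 1 and 1175 with the series value table, which holds the authors' processed intensities. The 60.2% became 31.8% and 25.1% without untreated replicates 1 and 2, 28.4% and 43.1% without HGF 24 h replicates 1 and 2, and 23.7% with that table. Whether fewer cells made a transcript or each cell held less of it cannot be told apart in bulk RNA. limma called 0 probes with array background as a block over the 10 arrays (1517 at an unadjusted p under 0.05, lowest adjusted p 0.279) and 0 with ordinary pooled variance (731 unadjusted). When the 4 arrays were fitted alone with that block, which there is the same as the replicate number, it called 996 probes, 364 higher and 632 lower. That fit had 1 residual degree of freedom and a prior of 1446, so all probes were given nearly the same variance. The unadjusted count rested on single arrays, with 229 without untreated replicate 1, 374 without HGF 24 h replicate 2 and 2075 without HGF 24 h replicate 1, while the adjusted count was 0 in each case. An exact permutation test of 2 arrays against 2 cannot go below p = 0.333.

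The 10 genes nearest to a call on the higher side were led by NNMT, MVP and DLGAP4, and none passed the test. NNMT, which methylates nicotinamide, read 313 and 189 in untreated cells and 511 and 492 at 24 h. Both 24 h arrays lay above both untreated arrays, and the difference of 1.04 ± 0.25 (SE, n = 2 arrays per group) had an unadjusted p of 0.000953 and an adjusted p of 0.857 by limma. AARS1, the alanyl-tRNA synthetase, read 1336 and 2171 untreated and 3057 and 3537 at 24 h, a difference of 0.95 ± 0.24 with an interval of 0.43 to 1.47. The groups did not overlap, and the 6 h arrays lay below both of them at 783 and 880.4. For MVP, the main protein of vault particles, signals of 347 and 295 stood against 547 and 583 at 24 h, again without overlap. CEBPD, a transcription factor of inflammation and growth arrest, gave 477 and 271 untreated and 808 and 564 at 24 h. Here the lower 24 h array was only a little above the higher untreated one. BCL6, a transcriptional repressor, read 497 and 553 against 880.4 and 765, a difference of 0.65 ± 0.18, while a second probe of BCL6 differed by 0.08. The other genes of the 10 were DLGAP4 (0.69, with a second probe at 0.41), the collagen-modifying enzyme P3H1 (0.62), the mRNA cleavage factor CPSF4 (0.68), COQ8A of coenzyme Q synthesis (0.70) and ENKD1 (0.63). All 10 had an adjusted p of 0.857. Groups that did not overlap were required for naming, and 2092 probes (14.9%) had both 24 h arrays above both untreated ones, so the separation itself is no result.

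On the lower side the 10 genes were led by HSPH1, SRSF2 and UGCG. HSPH1, a large heat shock protein that helps to free proteins from aggregates, read 948 and 853 in untreated cells and 420.4 and 359.7 at 24 h. The 24 h levels were less than those of every array of the other groups, the lowest of which was 501 on HGF 1 h replicate 1. Its difference of -1.21 ± 0.26 had the lowest unadjusted p of the genes named, 0.000426, with an adjusted p of 0.857. SRSF2, a splicing factor of the SR family, read 2077 and 1885 untreated and 996 and 1122 at 24 h (-0.90 ± 0.20), and at 6 h it had been called higher at 3519 and 4049. HNRNPU, a nuclear RNA-binding protein, gave 3245 and 2809.7 against 1905 and 1663 (-0.76 ± 0.19). UGCG, which makes glucosylceramide, read 889 and 675 untreated and 451 and 327 at 24 h. In both HNRNPU and UGCG each 24 h array lay below each untreated one. TFRC, the transferrin receptor, was among the tightest, with 5154 and 5065 untreated and 3207 and 3117 at 24 h (-0.69 ± 0.17). TNFAIP3, an inhibitor of NF-kB signaling also called A20, read 332 and 254 against 186 and 162 (-0.74 ± 0.19). The rest of the 10 were the adhesion molecule CEACAM1 (-0.75), the transcription factor ZNF143 (-0.74), FAM81A (-0.71) and the proton pump assembly factor VMA21 (-0.86). None of the 10 passed the test, and 2063 of all probes (14.7%) had both 24 h arrays below both untreated ones.

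**Figure D1:**
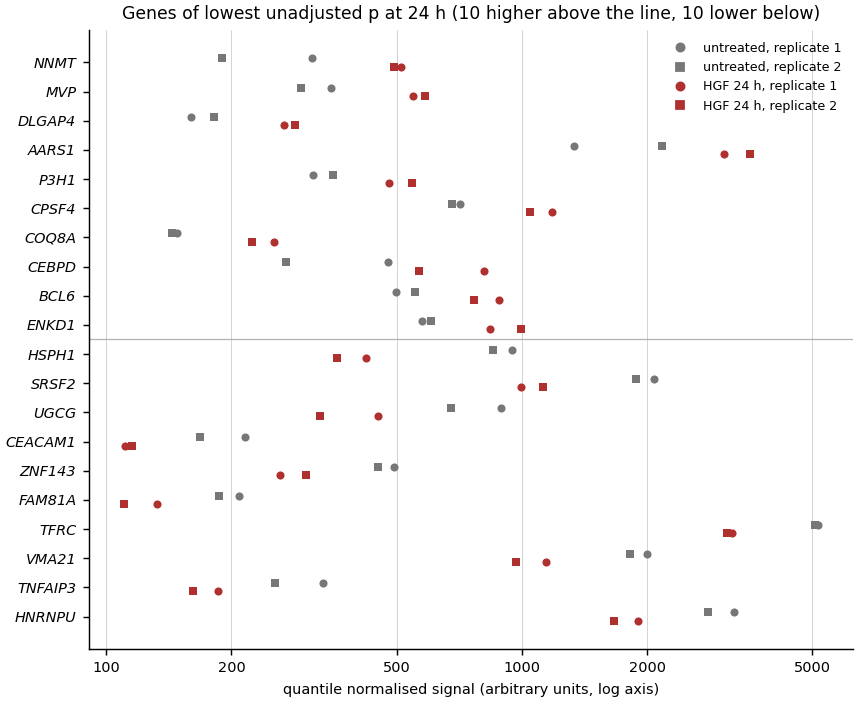
Quantile normalized signal (arbitrary units, log axis) of the 20 genes of lowest unadjusted p at 24 h, with gray points for untreated and red points for HGF 24 h arrays, circles for replicate 1 and squares for replicate 2. In each row the gray and red points are separate, as the naming rule required, and TFRC has the highest signals, 3117 to 5154.

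Within each replicate number the same comparison gave 2 separate readings, each of 1 array against 1. Probes are not independent replicates. Across them, the 24 h differences of replicate number 1 and of number 2 had a Pearson correlation of 0.43 and a Spearman correlation of 0.38. The same pair of readings at 6 h gave a Pearson correlation of 0.68. More than 1.5-fold was reached by 262 probes in number 1 and 525 in number 2. Both readings passed that size in the same direction for 19 probes higher (0.136%) and 55 lower (0.392%), and in opposite directions for 0. These 74 probes were chosen for their size, so their values are a description. Among the higher ones were NNMT (0.71 in number 1 and 1.38 in number 2), AARS1 (1.19 and 0.70), TXNIP (0.76 and 0.70) and PER1 (0.79 and 0.60). SERPINA3, a secreted protease inhibitor of the acute phase, was also there, with 281 against 510 within number 1 and 72.6 against 141 within number 2. The value of 72.6 was not detected, so the difference within number 2 is limited by the detection floor. The level of SERPINA3 differed more between the replicate numbers than between the conditions. The lower ones included HSPA1B, EGR1, HSPH1, SFPQ, UGCG, SRSF2, HNRNPU, HMGB1 and ELOVL6. HMGB1, a chromatin protein, read 1367 against 782 in number 1 and 1252 against 707 in number 2. SERPINA3 and HMGB1 were picked after their values were seen.

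**Figure D2:**
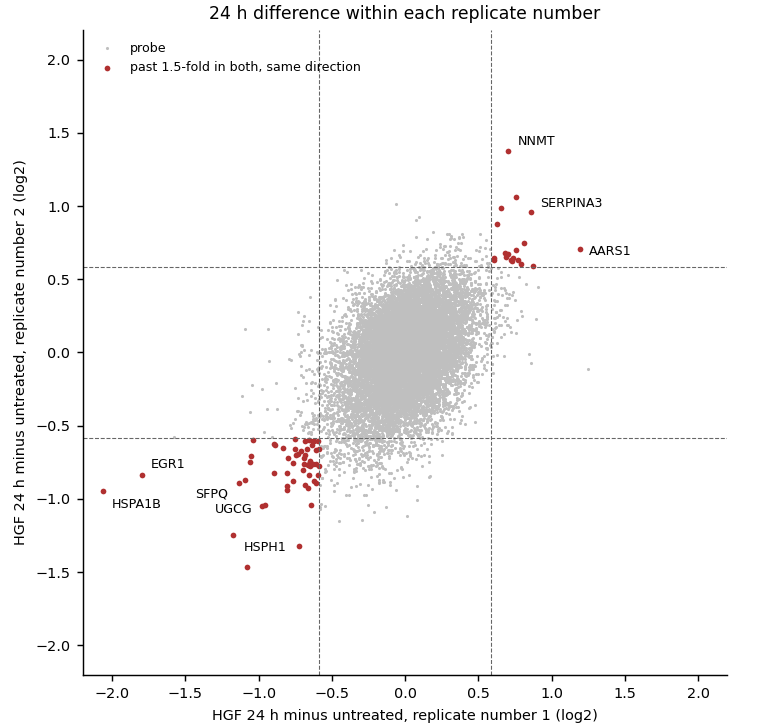
Difference between HGF 24 h and untreated (log2) of each of 14018 probes within replicate number 1 (horizontal axis) and number 2 (vertical axis), with dashed lines at 1.5-fold and red points for the 74 probes past 1.5-fold in both with the same sign. HSPA1B lies farthest out on the lower side in number 1 (-2.06) and NNMT highest in number 2 (1.38).

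The transcripts called at 6 h, 136 higher (0.97% of all probes) and 131 lower (0.935%), had medians near the untreated level at 24 h. Both comparisons use the same untreated arrays, so their values are set side by side. The 136 probes that were higher at 6 h had a median difference of 0.90 then and of -0.09 at 24 h (-0.14 within replicate number 1 and -0.0021 within number 2), with a range at 24 h of -1.01 to 0.46. The 131 probes that were lower at 6 h went from a median of -0.93 to 0.11 (0.17 and 0.05 within the replicate numbers), with a range of -0.46 to 0.95. At 24 h 0 of these 267 probes were called against untreated. The direct test of 24 h against 6 h called 123 of the 136 lower and 119 of the 131 higher at 24 h (4.07% and 4.24% of all probes). The 6 h arrays chose these probes and also enter that test, so its direction is partly fixed by the choice and the counts are a description. By the interval, 79 of the 136 (58.1%) and 60 of the 131 (45.8%) were within 1.5-fold of untreated. Together these were 52.1% of the 267, against 60.2% of all probes, so being back within 1.5-fold was no more common in this set than over all probes. The 139 probes so placed became 71 without untreated replicate 1, 74 without untreated replicate 2 and 77 and 89 without HGF 24 h replicates 1 and 2, and the 1165 calls between the times became 434 and 308 without HGF 6 h replicates 1 and 2. Probes past 1.5-fold at 24 h were few, 6 on the lower side among the former rises and 2 on the higher side among the former falls.

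The largest 6 h rises show the pattern gene by gene. ATF5, a stress-linked transcription factor, read 127 and 127 untreated, 389 and 472 at 6 h and 103 and 135 at 24 h, where the untreated values lay inside the 24 h range. The metal-binding protein MT1X gave 198 and 214, then 536 and 543, then 193 and 262. Intervals at 24 h for both (-0.50 to 0.28 for ATF5, -0.27 to 0.52 for MT1X) were within 1.5-fold. No background was subtracted from these signals. Those of ATF5 at 24 h and untreated were near the detection limit of 89.6, so its interval holds little information on size. TMEM158, a gene induced by RAS signaling, stood at 182 and 141 at 24 h against 151 and 135 untreated, with an interval of -0.38 to 0.72 that was too wide to place it. For 5 of the 8 genes both 24 h arrays were below both untreated arrays, as in 14.7% of all probes. MAT2A, which makes the methyl donor S-adenosylmethionine, went from 289 and 219.6 to 956 and 931 at 6 h and to 189 and 138 at 24 h. Its 24 h difference was -0.64 ± 0.28 (unadjusted p = 0.037, adjusted p = 0.857 by limma). CXCL8, the chemokine interleukin-8, read 173 and 124, then 463 and 433, then 103 and 90.1. The second of its 24 h values was not detected, so its difference of -0.60 is limited by the detection floor. SFPQ, an RNA-binding protein of nuclear paraspeckles, gave 413 and 334, then 1105 and 884, then 188 and 180.25, which made it the lowest of the 6 h rises at 24 h (-1.01 ± 0.29, unadjusted p = 0.0041). TM4SF19, a membrane protein with 4 spans, and TNFRSF12A, the receptor of TWEAK, differed by -0.73 and -0.44 at 24 h. None of these 5 differences passed the test.

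Of the 8 largest 6 h falls, 2 could be placed within 1.5-fold of untreated at 24 h. CHAC1, which degrades glutathione, read 313 and 347 untreated, 126 and 101 at 6 h and 261 and 399.9 at 24 h. SATB1, a chromatin organizer, gave 225 and 198, then 79.6 and 79.6, then 269.5 and 188. RIPOR2 differed by 0.09 at 24 h. At 6 h SATB1 and LDB2 were detected on 0 of 2 arrays and RIPOR2 and DIRAS1 on 1 of 2. The detection floor therefore limits the size of their 6 h falls. For SATB1 and RIPOR2 the interval was within 1.5-fold (-0.33 to 0.52, and -0.36 to 0.54). The intervals of CHAC1 (-0.63 to 0.57), LDB2, YPEL5, CTH and DIRAS1 included 0 and reached past 1.5-fold on at least one side. A second probe of CTH differed by only -0.13 at 6 h, against -1.33 for the probe named here. YPEL3, of a family linked to growth arrest, was the one of the 8 whose 24 h arrays, at 726 and 895, both lay above its untreated values of 538 and 622 after 238 and 223 at 6 h. The difference was 0.48 ± 0.18 (unadjusted p = 0.0209, adjusted p = 0.857).

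**Figure D3:**
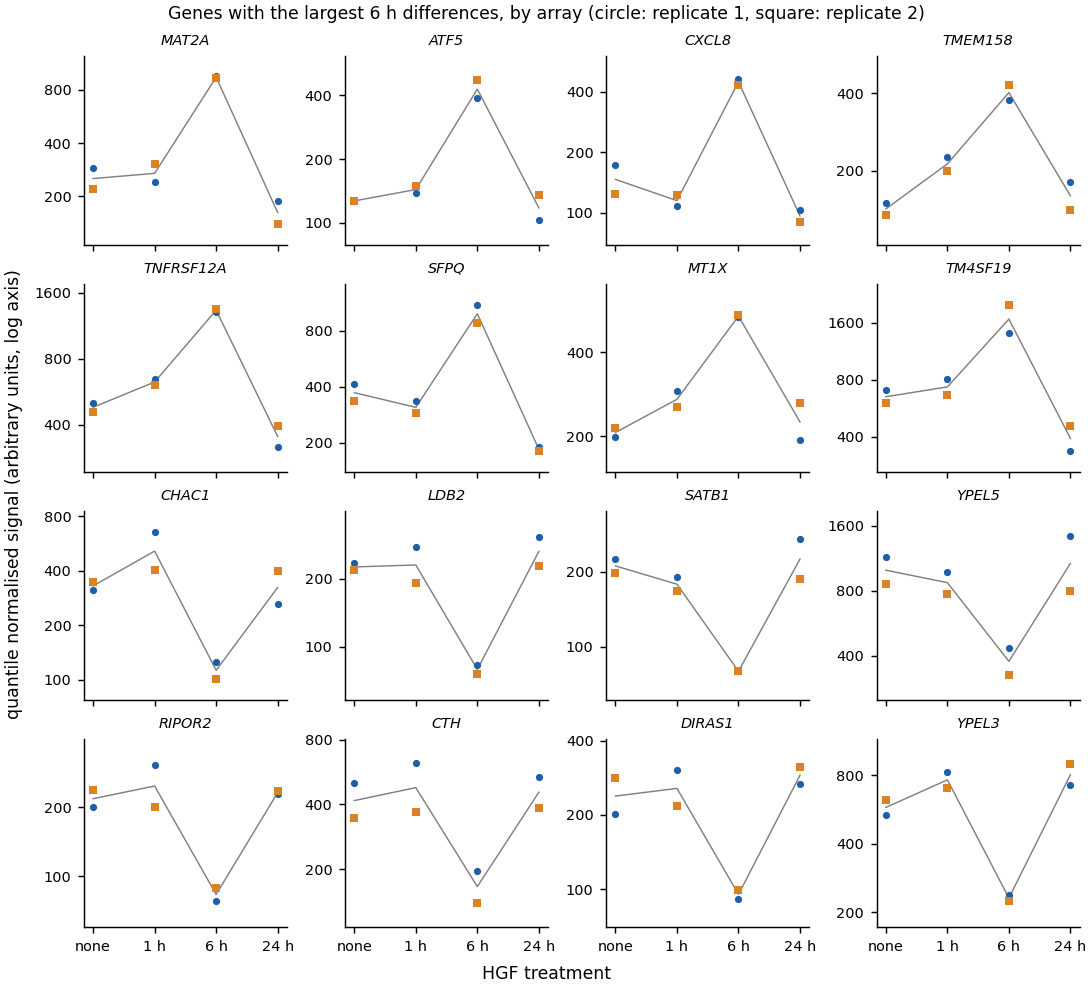
Quantile normalized signal (arbitrary units, log axes) of the 8 largest rises and 8 largest falls at 6 h, for untreated cells and for HGF at 1 h, 6 h and 24 h along the horizontal axis, with circles for replicate 1, squares for replicate 2 and a line through the geometric mean. Each gene departs at 6 h and is near or past its untreated level at 24 h, as in MAT2A, which goes from 289 and 219.6 to 956 and 931 and then to 189 and 138.

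A further reading used separate arrays to choose and to read. Probes were chosen where they differed 2-fold or more at 6 h within one replicate number, with detection on the higher side, and their 24 h difference was read within the other. Of 50 probes higher at 6 h in number 1, the median in number 2 was 1.07 at 6 h and -0.02 at 24 h. The 54 lower probes had -0.97 and 0.01. Chosen in number 2 and read in number 1, the 63 higher probes had 0.93 at 6 h and -0.32 at 24 h, and the 68 lower probes -0.90 and 0.31. The medians over all probes were 0.02 in number 2 and 0.01 in number 1. In number 1 the medians lay on the other side of 0 from the 6 h response. In number 2 they were 0.02 or less in size, and that of the lower probes was under the median over all probes. Some of these medians moved under other processing, as given below. The numbers were not tested against each other. In number 1, 14 of the 63 (22.2%) were more than 1.5-fold below untreated, against 1.16% of all probes, and 8 of the 68 (11.8%) were more than 1.5-fold above it, against 0.706%. In number 2 the shares past 1.5-fold on the opposite side were 8% and 11.1%, against 2.78% and 0.97% of all probes. Past 1.5-fold on the same side as at 6 h there were 0, 2, 0 and 0 probes in these 4 sets.

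The early genes and the ERK pathway, which stand closest to MET, gave 0 calls at 24 h, as did all 14018 probes (0%). Of 30 measured immediate early genes, the transcription factors that first answer a growth factor, 0 were called and the median was -0.02. FOSL1 (-0.02), JUN (0.02), MYC (-0.06) and DUSP1, a phosphatase of MAP kinases (0.0006), were close to 0. EGR1, a zinc finger transcription factor, read 329 and 159 untreated and 94.7 and 88.8 at 24 h, with detection on 1 of 2 arrays at 24 h. Its untreated arrays alone differed by more than 2-fold, and the difference of -1.32 ± 0.46 had an adjusted p of 0.857. IER3, a regulator of cell survival, differed by -0.51. Among 25 genes of ERK feedback and output the median was -0.13, with 7 above 0 and 0 called. CCND1, cyclin D1, which opens the way into the cell cycle, read 216 and 209.9 untreated and 169 and 145 at 24 h (-0.44, unadjusted p = 0.151), after 550.2 and 497 at 6 h, a called rise. PHLDA2, an imprinted growth inhibitor, gave 5718 and 5444 against 3125 and 4157 (-0.63 ± 0.20, unadjusted p = 0.0068), and the ERK phosphatase DUSP6 differed by -0.46. In both genes the 24 h arrays were below the untreated array of the same replicate number. Of 16 MET-proximal genes 0 were called (median 0.10), with PIK3R1, a PI3K subunit, at -0.44 and MAPK3, the kinase ERK1, at 0.39.

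The lowest difference of all tested probes belonged to a heat shock protein, one of the chaperones that help other proteins to fold. Of 32 measured chaperones 0 were called, 7 had an unadjusted p under 0.05 on the lower side (3.39% of all probes) and 1 on the higher (2.32%), and in 15 both 24 h arrays lay below both untreated ones (14.7% of all probes did). The list median was -0.20, against 0.01 over all probes, with -0.14 and -0.08 within replicate numbers 1 and 2. HSPA1B, the inducible Hsp70, read 1829.8 and 956 untreated and 437 and 496 at 24 h, a difference of -1.51 ± 0.39 (unadjusted p = 0.0019, adjusted p = 0.857). HSPA1A, a near-identical copy whose signal cannot be kept fully apart from that of HSPA1B, gave 453 and 272 against 152 and 183. In both genes the untreated arrays were far apart, and the ITGB4 arrays too, with 1926 and 712 for HSPA1B. HSPH1, above, had the same direction with close replicates. DNAJA1, an Hsp70 cochaperone, read 769 and 748 untreated and 523 and 479 at 24 h (-0.60), and HSP90AA1, the inducible Hsp90, differed by -0.48. HSPE1 and CCT2, chaperonins of the mitochondrion and the cytosol, differed by -0.48 and -0.43. HSPB1, the small heat shock protein Hsp27, was on the other side at 813 and 1001 against 1101 and 1319 (0.42). HSP90AB1, the constitutive Hsp90, stayed within 0.08 of 0 in both replicate numbers, at -0.07 and 0.06.

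Chaperone genes are known to be driven by heat shock elements, and the promoter of HSPA1B is shown because it had the largest difference of all tested probes. The element was searched as GAANNTTC, which reads the same on both strands, in the 250 bases before each start. The sequence is from RefSeq on GRCh38.p14, chr6:31827488-31827737, plus strand, with the match in capitals.
HSPA1B: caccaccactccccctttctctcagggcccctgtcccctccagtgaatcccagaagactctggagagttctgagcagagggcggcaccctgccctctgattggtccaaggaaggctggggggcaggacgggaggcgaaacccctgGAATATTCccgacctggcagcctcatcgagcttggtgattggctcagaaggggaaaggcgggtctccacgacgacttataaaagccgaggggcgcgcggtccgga
The letters were present for 15 of 29 list members with a promoter (51.7%) and for 7.05% of 27305 genes. Members with a match had a median of -0.21 at 24 h and those without of -0.19, which differed by little. HSPH1 had no match in this window.

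Genes of the amino acid stress response had a median above 0. They serve amino acid synthesis, transport and tRNA charging under the transcription factor ATF4. Of 33 measured genes 0 were called, and 7 had an unadjusted p under 0.05 on the higher side (2.32% of all probes) and 0 on the lower (3.39%). In 12 both 24 h arrays were above both untreated ones, against 14.9% of all probes, and in 0 below. The list median was 0.16, with 0.13 and 0.23 within the replicate numbers, after -0.48 at 6 h, when 9 of the genes were called lower and 1 higher (0.935% and 0.97% of all probes). ATF4 itself read 859 and 941 untreated and 1146 and 1194 at 24 h (0.38, unadjusted p = 0.0305), after a called fall of 1.12 at 6 h. NUPR1, a stress-induced chromatin protein, gave 1507 and 1260.1 against 1945 and 1862 (0.47), and SARS1, the seryl-tRNA synthetase, 3437 and 2904 against 4157 and 4413 (0.44). DDIT3, the transcription factor CHOP, and PHGDH, the first enzyme of serine synthesis, both differed by 0.38. Other members varied. TRIB3, a pseudokinase, differed by 0.07 in number 1 and 0.91 in number 2, ASNS, the asparagine synthetase, by 0.14 and 0.46, and SLC38A2, an amino acid transporter, by -0.25 and -0.29. Against 6 h, 19 of the 33 were called higher and 1, ATF5, lower (4.24% and 4.07% of all probes).

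The promoters of AARS1 and CHAC1 are shown because the first had the largest 24 h value of this list and the second the largest 6 h fall. The composite element of C/EBP and ATF factors was searched as TGATGNAA on both strands in the same window. Both sequences are from RefSeq on GRCh38.p14, with the match, which lies on the reverse strand in each, in capitals. AARS1 is at chr16:70289507-70289756 on the minus strand and CHAC1 at chr15:40953221-40953470 on the plus strand.
AARS1: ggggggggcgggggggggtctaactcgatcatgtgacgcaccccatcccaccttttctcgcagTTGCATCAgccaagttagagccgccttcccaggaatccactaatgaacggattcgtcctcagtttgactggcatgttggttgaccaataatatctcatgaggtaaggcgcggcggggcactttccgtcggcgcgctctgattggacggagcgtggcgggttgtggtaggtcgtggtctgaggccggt
CHAC1: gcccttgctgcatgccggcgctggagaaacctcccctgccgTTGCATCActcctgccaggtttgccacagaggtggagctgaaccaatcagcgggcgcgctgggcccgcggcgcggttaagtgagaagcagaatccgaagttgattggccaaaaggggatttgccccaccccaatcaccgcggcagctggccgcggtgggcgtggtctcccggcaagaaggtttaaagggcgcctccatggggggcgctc
The same letters were found for 6 of 28 list members (21.4%) and for 3.89% of all genes. The 24 h median was 0.27 with a match and 0.12 without. AARS1 and CHAC1 held the same 8 letters and were 0.95 and -0.03 from untreated.

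**Figure D4:**
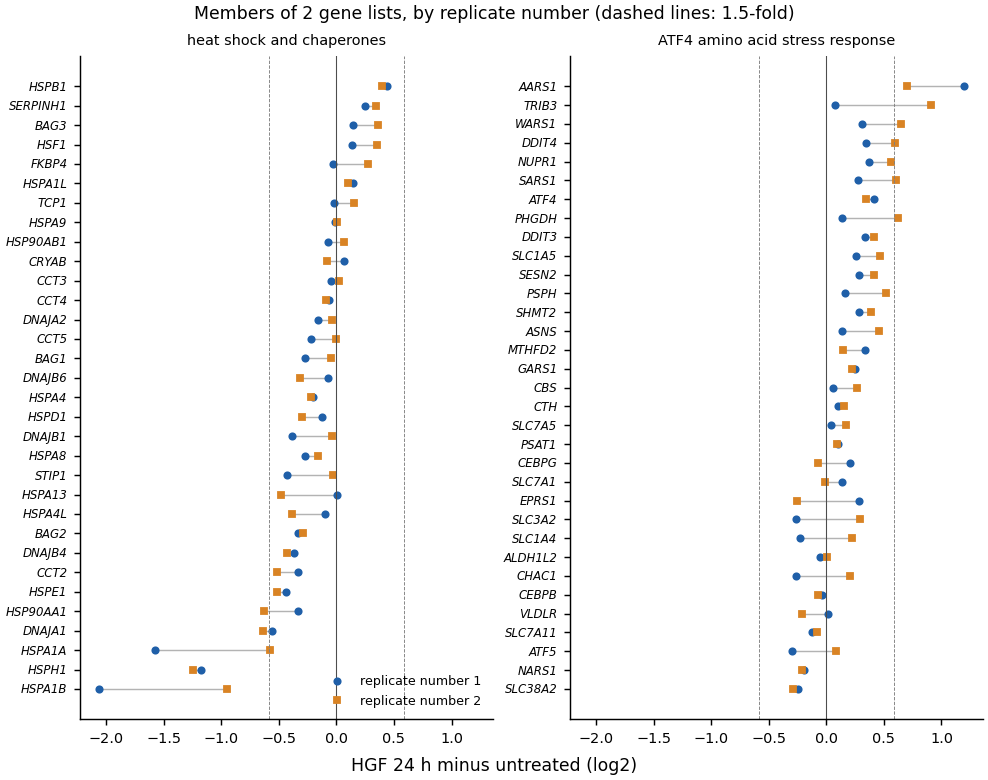
Difference between HGF 24 h and untreated (log2) of each measured chaperone gene (left) and each amino acid stress gene (right), with blue circles for replicate number 1, orange squares for number 2 and dashed lines at 1.5-fold. HSPH1 lies past the line on the lower side in both readings (-1.17 and -1.25) and AARS1 on the higher side (1.19 and 0.70), and most other genes lie between the lines.

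Growth-related lists that had moved at 6 h were near or past the untreated level. The nucleolar proteins of ribosome biogenesis had a median of 0.63 at 6 h, when 12 of 38 were called higher (0.97% of all probes), and of -0.16 at 24 h. For 22 of the 38 the 24 h level was called below that of 6 h (4.07% of all probes). NOP56, of small nucleolar particles, read 371 and 343 untreated and 265 and 317 at 24 h (-0.30), and LYAR, a nucleolar cell growth regulator, 406 and 355 against 285 and 260.5 (-0.48). NOB1, which cleaves the precursor of 18S RNA, was on the other side at 287 and 376 against 466 and 470.0 (0.51). The 66 cytosolic ribosomal proteins had a median of 0.08, with RPL17 and RPL14 at 0.35. For 57 of them the interval lay within 1.5-fold, as for 60.2% of all probes. Genes of quiescence went the other way, from a median of -0.39 at 6 h with 7 of 26 called lower (0.935% of all probes) to 0.06 at 24 h, and 11 were called higher at 24 h than at 6 h (4.24%). TXNIP, which binds thioredoxin and restrains glucose uptake, read 556 and 419 untreated and 942 and 679 at 24 h (0.73 ± 0.22, unadjusted p = 0.006), and MXD4, an antagonist of MYC, 591 and 537 against 763 and 922 (0.57). CDKN1C, an inhibitor of cyclin kinases, was detected on 2 of 2 untreated arrays and 0 of 2 at 24 h. Its least fall by the detection floor was 1.24-fold, a point estimate without an interval. Metallothioneins and the zinc exporter SLC30A1 had a median of 0.10 after 0.99 at 6 h, and of -0.09 to 0.29 when 1 array was omitted. An interval within 1.5-fold was found for 5 of 6, and for 60.2% of all probes. MT2A gave 1246 and 1444 untreated and 1259 and 1568 at 24 h, which overlap, and MT1H differed by 0.21. SLC30A1, which is among these 5, was not detected in either group, so its interval holds little information.

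Among 17 circadian clock genes DBP, a clock output factor, read 346 and 503 untreated and 632 and 758 at 24 h (0.73 ± 0.32, unadjusted p = 0.0407), and PER1, a clock repressor, 94.9 and 129 against 164 and 196 (0.70 ± 0.21, unadjusted p = 0.006). For PER1 the untreated value of 94.9 was near the detection limit of 89.6, so the size of its difference is uncertain. The core factors BMAL1 and CLOCK differed by 0.0014 and -0.47, and the list median was 0.10. Enzymes of cholesterol and fatty acid synthesis had a median of -0.11 over 28 genes. ELOVL6, which elongates fatty acids, read 972 and 838 untreated and 637 and 494 at 24 h (-0.69 ± 0.20), and SC5D and SQLE, of sterol synthesis, differed by -0.65 and -0.53, while SREBF2, their main regulator, differed by 0.33. In the unfolded protein response of the endoplasmic reticulum the median was -0.21 over 23 genes, and -0.15 and -0.02 within the replicate numbers, with the chaperone DNAJB11 at -0.46 and the secreted factor MANF at -0.42. Melanocyte genes had a median of -0.11 over 22. Of these the pigment antigen MLANA read 2052.5 and 1285 against 1316 and 924, with overlapping groups, and the pigment enzyme tyrosinase, TYR, 2967 and 2292 against 2116 and 1684, without overlap. Over 18 NF-kB targets the median was 0.02, with TNFAIP3 and CXCL8 lowest and NFKB2, an NF-kB subunit, highest at 0.43.

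The remaining lists had medians from -0.09 to 0.13 and 0 called genes each, and no member was more than 0.71 from untreated. Cell division lists had medians of -0.07 over 41 G1/S genes (MCM10 at -0.49 and POLD1 at 0.43) and -0.04 over 48 mitosis genes (the kinesins CENPE and KIF23 at -0.57 and -0.55). The mitosis median had a different sign within the replicate numbers, 0.10 and -0.13. For motility and matrix proteolysis the median was 0.06 over 27 genes, with the membrane-actin linker RDX at -0.45 and the protease CAPN1 at 0.39, and for epithelial-mesenchymal transition 0.03 over 12, with ZEB2 at -0.33 and ZEB1 at -0.27, the latter detected on 1 of the 4 arrays. Targets of SRF and YAP had -0.09 (19 genes, ZYX at 0.35 and CNN3 at -0.27) and hemidesmosome genes 0.04 (14 genes, PLEC at 0.41 and DST at -0.26). For TGF-beta and BMP targets the median was 0.04 (14 genes, TSC22D1 at 0.37). SKIL, of that list, was not detected at 24 h. Its least fall by the detection floor was a point estimate of 1.09-fold, and the interval of its difference, -0.74 to 0.016, included 0. The p53 targets stood at -0.03 (22 genes, XPC at 0.44 and SESN2 at 0.35), the BCL2 family and death regulators at 0.01 (29 genes, BNIP3 at -0.50 and BAD at 0.49) and hypoxia and glycolysis at -0.05 (30 genes, with PFKFB4 at -0.50). Oxidative phosphorylation gave 0.02 over 47 genes (ATP5F1D at 0.46 and COX6A1 at 0.45) and the interferon response 0.07 over 32 (IFITM3 at 0.55 and SP100 at -0.46). Marker lists of other cell types had medians of 0.07 for 11 epithelial genes (ESRP1 at -0.42 and ELF3 at 0.25, not detected), -0.05 for 5 stromal genes (LUM at -0.71 and S100A4 at 0.22) and 0.13 for 6 immune genes (LYZ at 0.36, and NKG7 at 0.36 with detection on 1 of 4 arrays). Probes of one gene disagreed for KIF23 (-0.04 in a second probe), PIK3R1 (0.23), PLEC (-0.24 to 0.13 in its other probes) and TSC22D1 (-0.06 and 0.54). The other probes of BAD differed by 0.10 and 0.18.

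**Figure D5:**
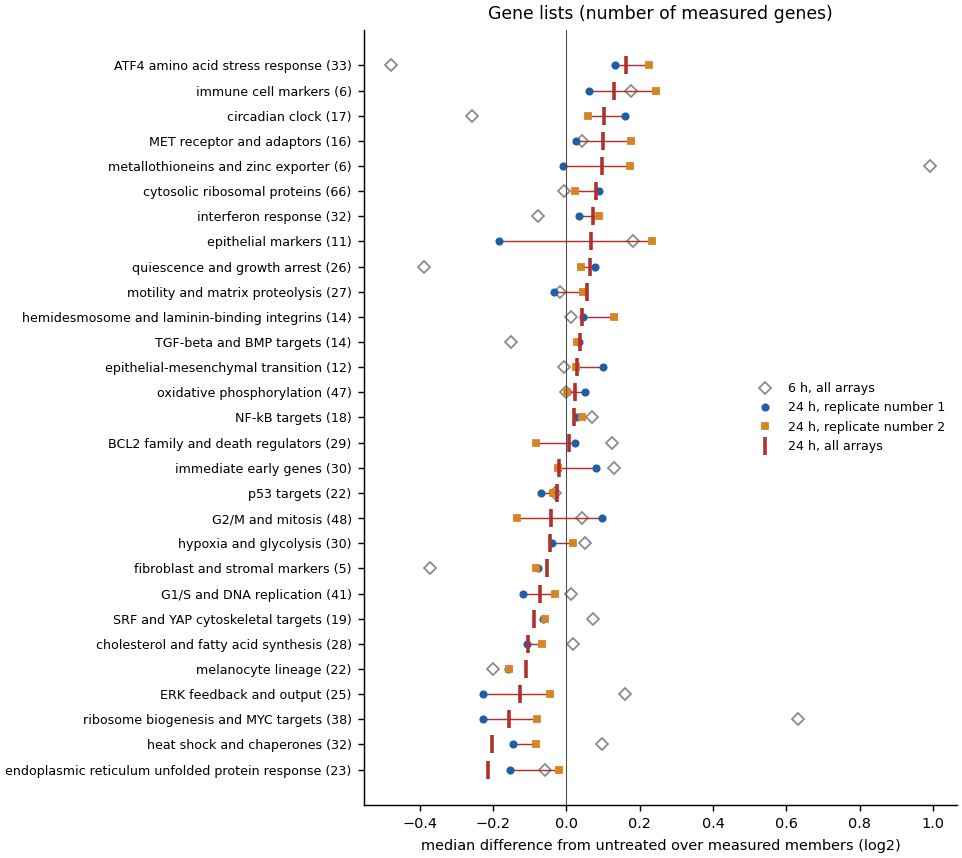
Median difference from untreated (log2) over the measured members of each of 29 gene lists, with red bars for 24 h over all arrays, blue circles and orange squares for 24 h within replicate numbers 1 and 2, and open diamonds for 6 h, which uses the same untreated arrays. At 24 h the medians lie between -0.21 and 0.16, and at 6 h between -0.48 for the amino acid stress genes and 0.99 for the metallothioneins.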

How the data were processed

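Total RNA of 10 samples was labeled with biotin and hybridized to Illumina bead arrays. The authors deposited 1 table per array, written with BeadStudio 1.5.1.3 per the submitters' notes, with an intensity per probe, the average over its beads before any background subtraction. The deposited tables also hold a detection score from 0 to 1 and other columns with the number of beads (median 26 to 32 per array) and their spread. The deposited series table has intensities after the authors' background subtraction and rank-invariant normalization. In 9 of 10 columns it was a straight line of the scanner values within rounding, and not in the column of ITGB4 replicate 2. Its column medians were 11.6 to 22.7. It served as an alternative. A genome build was not given in the sources used here.

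After removal of 22 control probes and 9 with missing values, intensities were quantile normalized and taken to log2 without an offset. Probes with a detection score of 0.99 or more on at least 1 array were kept (14018 of 24105, 58.2%), and 11466 carried a symbol. A gene in a list was read by its brightest kept probe. Each probe was fitted with limma 3.58.1 in R 4.3.3 over the 5 group means of all 10 arrays (5 residual and 8.16 prior degrees of freedom, median SE of a difference 0.18), with a two-sided moderated test and Benjamini-Hochberg adjustment over the kept probes. The script was tested on simulated data. The number of arrays limits the precision. Arrays of a group are called biological duplicates in the design text, and p-values measure only the spread between them.

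Named genes were the 10 probes per direction of lowest unadjusted p at 24 h with groups that do not overlap and detection in the higher group, the 8 largest called differences per direction at 6 h, the 4 largest per direction between 24 h and 6 h, the 2 largest members of each of 29 lists at 24 h, and MET, HGF and ITGB4. Other list members were named after their values were seen. The comparison, the lists and the rule were chosen with earlier results of these data known. Alternatives covered normalization, background, the value source, a floor, the filter, the arrays fitted, blocks, the variance and leaving out each array.

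Replicate numbers are not stated to mark a shared batch. The difference between replicates 1 and 2 correlated across probes at 0.59 to 0.66 between the untreated, HGF 6 h and HGF 24 h groups and at -0.06 to 0.43 between pairs with HGF 1 h or ITGB4. Pairing was to be assumed only if every pair of groups exceeded 0.1, which was not met, so the main model has no block. The pairs under 0.1 were HGF 1 h with HGF 24 h (0.06) and with ITGB4 (-0.06), while untreated with HGF 24 h stood at 0.66. A shared replicate effect among the untreated, 6 h and 24 h arrays is not excluded by this. Without a block such an effect counts as spread in the main test, and its part in the 0 calls at 24 h was not tested. The blocked fits are given beside the result.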

Additional observations from a re-analysis of the deposited data

Results flagged for a closer look

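The levels at HGF 24 h and at HGF 6 h differed from each other in a direct test by limma, which called 1165 probes. Hours in culture and hours with HGF cannot be told apart in it. With ordinary pooled variance the same comparison had 107 calls. Among the genes named for the largest 6 h rises or for the largest differences between the times, the 24 h level was below the 6 h level (log2) by -2.54 for MAT2A, -2.42 for SFPQ, -2.22 for CXCL8, -2.1 for TM4SF19, -1.91 for TNFRSF12A, -1.86 for ATF5, -1.33 for TMEM158 and -1.26 for MT1X. It was above the 6 h level by 1.99 for AARS1, 1.8 for YPEL3, 1.73 for LDB2, 1.68 for DBP, 1.61 for DIRAS1, 1.52 for CHAC1, 1.51 for YPEL5, 1.5 for SATB1, 1.48 for RIPOR2 and 1.46 for CTH. At 6 h LDB2 and SATB1 were detected on 0 of 2 arrays and DIRAS1 and RIPOR2 on 1 of 2. The sizes for these genes are limited by the detection floor. Each of the 18 had an adjusted p under 0.05 in that test, and none was called at 24 h against untreated. Genes chosen for a large 6 h difference share the 6 h arrays with this test, so a difference toward the untreated level is partly fixed by the choice.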

How the results depend on the processing

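limma called 0 probes at HGF 24 h under 13 of 14 alternatives and under each of 10 omissions of 1 array. The replicate number as a block, fitted to the untreated and HGF 24 h arrays alone, called 996, among them 55 of 75 named-gene results, and with all 10 arrays the replicate block called 0 (1585 unadjusted, lowest adjusted p 0.0778). The unadjusted calls, 325 higher and 475 lower, became 101 and 510 with median scaling and 665 and 490 with the series value table. Of the probes called at 6 h, 139 had a 24 h interval within 1.5-fold of untreated, 74 with the value table and 71 to 138 when 1 array was omitted. The median of the 6 h falls chosen in replicate number 1 and read in number 2 was -0.22 with median scaling, and that of the rises chosen in number 2 was 0 with the value table. Among named genes not chosen at 6 h, omitting 1 array turned the sign of the 24 h difference of 5. Ranges were -0.13 to 0.57 for S100A4, -0.19 to 0.20 for MET and -0.053 to 0.038 for ITGB4. Those of ZEB2 and DST were -0.69 to 0.032 and -0.62 to 0.10. Among genes chosen at 6 h, omitting 1 array turned the sign of ATF5, CHAC1, CTH, MT1X, RIPOR2, SATB1, TMEM158 and YPEL5 (-0.32 to 0.53). It also moved 24 h list medians by more than the spread between replicates in 49 cases, with ranges of -0.23 to -0.01 for ribosome biogenesis, -0.27 to 0.17 for G2/M, -0.24 to 0.12 for G1/S and -0.09 to 0.29 for metallothioneins, against -0.21 to -0.16 for chaperones and 0.16 to 0.27 for amino acid stress genes. Where an array was omitted, the array remaining in its group was assumed to vary like the other groups. With ordinary pooled variance 0 of the 8 gene results followed between 24 h and 6 h passed, and the 1165 calls between these times became 107. The cause of these shifts was not tested. Signals near the detection limit hold little information on size.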
